A study of Mus musculus with 9 samples.

Results

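The cornified envelope is the cross-linked protein shell that replaces the plasma membrane of keratinocytes as they die at the surface of the epidermis. The genes described here were chosen by symbol. They are the late cornified envelope genes (Lce) and small proline-rich protein genes (Sprr) whose symbols carry a number, with Sprr1a left out, together with Flg2, Hrnr, Rptn, Crnn, Tchh, Tchhl1, Ivl, Lor, Krtdap, Calm4, Mt4 and Lgals7. This rule found 43 of the 22609 genes in the counts. Flg is not analysed here.

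RNA was sequenced from 3 samples each of hind paw skin, taken as punch biopsies, of the L3-L5 dorsal root ganglia (DRG), which hold the sensory neurons, and of lumbar spinal cord. All 9 samples came from male C57 mice of 8 to 12 weeks. Every mouse had received paclitaxel (PTX), a microtubule-stabilising chemotherapy drug, in 2 doses of 2 mg/kg into the peritoneum, and an antagonist of the lymphotoxin-beta receptor (LTβR) at 15 µg into the paw and 15 µg into the spinal fluid. The sample titles put the antagonist on days 1 and 4, whereas the series text puts it between the PTX doses and 1 day after them. Tissue was taken 6 days after the last PTX dose. Control IgG samples are not analysed here, so every comparison is between tissues of mice with the same treatment. A skin punch holds epidermis, dermis, hair follicles, glands and muscle, and the share of epidermis in each was not measured. Whether the 3 samples per tissue are from different animals is not stated, and a p-value here covers no more than their spread.

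Keratinocytes leaving the basal layer make keratins, then the precursors of the envelope, which transglutaminases join to each other below the membrane. Involucrin and envoplakin form an early scaffold, loricrin and the small proline-rich and late cornified envelope proteins reinforce it, and lipids are attached to its outer face. Most of these precursors are encoded side by side in the epidermal differentiation complex, which lies on chromosome 3 in mouse. Large S100-fused proteins of the same complex, such as hornerin and filaggrin-2, bundle keratin and are later cut to small peptides.

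Between 15537545 and 23229724 reads per library were assigned to genes. Levels below are in CPM, reads scaled to the library size, with library sizes scaled by the trimmed mean of M values (TMM). The floor, 3 reads, corresponded to 0.129 to 0.193 CPM before TMM scaling. A gene was called where its Benjamini-Hochberg adjusted p over all 16091 genes tested was under 0.05 in edgeR's quasi-likelihood test. Keratinocyte markers were present in paw: Krt5 and Krt14, keratins of the basal layer, averaged 2335 ± 213 and 2691 ± 140 CPM, and Krt10, a keratin of the spinous layer, 20642 ± 4539 CPM (SD, n = 3).

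The genes took 2.83 to 3.26% of the gene reads of the paw libraries, or 453678 to 518763 reads. The 3 DRG libraries held 210 to 383 of their reads and the 3 spinal cord libraries 303 to 398. Summed over the 43 genes, the level was 31055, 31287 and 26720 CPM in paw samples 1, 2 and 3, against 15.6, 10.1 and 19.0 CPM in the DRG samples and 19.9, 18.3 and 17.4 CPM in the spinal cord samples. In bulk RNA, more cells of a type and more RNA per cell cannot be told apart. Of this summed paw level, 50.9% came from Calm4, Ivl, Krtdap, Lgals7, Lor and Mt4, 27.4% from the 6 S100-fused genes, 18.9% from the 12 Lce1 genes and 0.294% from the 11 Sprr2 genes.

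Tests were possible for 32 of the 43 genes. All 32 were called higher in paw than in DRG, where 39.7% of all tested genes were, and all 32 were called higher in paw than in spinal cord, where 39.9% were. Nothing is read from that count, because 26 of the 32 reached the minimum count through paw alone, and no adjusted p is given for those 26 in the comparisons with paw. Calm4, Hrnr, Krtdap, Lgals7, Lor and Tchh had enough reads without paw. The other 11 genes had too few reads in any tissue. They were Lce3a, Lce3b, Sprr2a1, Sprr2a2, Sprr2e, Sprr2f, Sprr2g, Sprr2i, Sprr2j-ps, Sprr3 and Tchhl1.

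**Figure D1:**
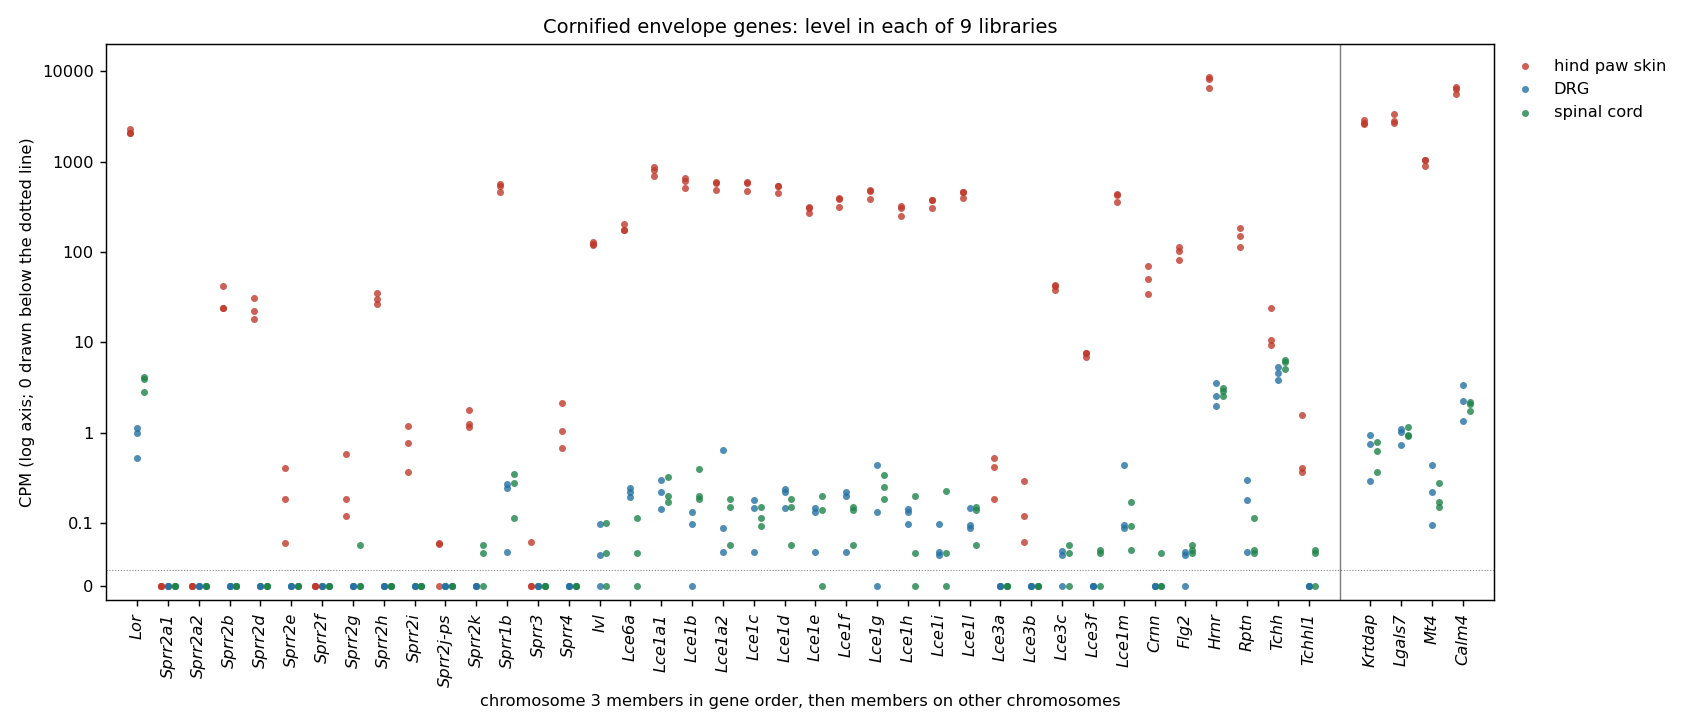
Level of each gene in each of the 9 libraries, in CPM on a log axis, with 0 drawn below the dotted line. Each point is 1 library, coloured by tissue, and genes on chromosome 3 stand in gene order from left to right. Paw points of Hrnr, Calm4, Lgals7, Krtdap and Lor lie at 2059 CPM or higher, the Lce1 genes form a band between 250 and 862 CPM, and the Tchh points of all 9 libraries lie between 3.86 and 24.2 CPM.

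Lor and Ivl encode the proteins most often used to name the envelope. Lor, the gene of loricrin, a glycine-rich protein that makes up most of the finished envelope's mass, had 2059, 2284 and 2095 CPM in paw. It had 0.983, 0.531 and 1.14 CPM in the DRG and 4.15, 3.97 and 2.81 CPM in spinal cord. The 3 tissues did not overlap, and spinal cord stood between paw and DRG. For Lor, paw exceeded DRG by 11.23 ± 0.26 on the log2 scale (SE, adjusted p = 1.31e-11) and exceeded spinal cord by 9.19 ± 0.23 (adjusted p = 1.86e-11). Ivl, the gene of involucrin, which is laid down early under the membrane, had 128, 121 and 120 CPM in paw. These 3 values had the closest agreement of the tested genes, with the highest 1.07 times the lowest. Ivl had 3 reads in all over DRG and 3 over spinal cord, so that its level in paw was 2597 times that in DRG (95% counting interval 888 to 12597) and 2415 times that in spinal cord (826 to 11712).

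The Lce genes encode small cysteine- and glycine-rich proteins that are added late. The 12 Lce1 genes in the counts were all well expressed in paw. Lce1a1, the highest also per kilobase of transcript, had 801, 862 and 701 CPM, Lce1b 617, 651 and 511 CPM, and Lce1h, the lowest on average, 322, 310 and 250 CPM. The means of the 12 genes thus spanned 294 ± 38.4 to 788 ± 81.8 CPM, before any correction for transcript length. Each of them had between 0 and 13 reads in any DRG library and between 0 and 7 in any spinal cord library. Their log2 differences were 10.90 to 12.76 for paw minus DRG and 10.75 to 12.09 for paw minus spinal cord. With so few reads outside paw, 1 library moved some of them by over 1.5 times in fold. Without DRG sample 3 the difference from DRG was 12.82 for Lce1a2, 12.53 for Lce1g and 11.99 for Lce1m, against 11.05, 11.16 and 10.90 with it. Without DRG sample 1 it was 13.38 for Lce1b, against 12.76. The difference from spinal cord was 13.17 for Lce1h and 11.81 for Lce1e without spinal cord sample 1, against 11.65 and 11.21, and 13.53 for Lce1i without spinal cord sample 3, against 11.92. Lce6a, a single gene at the edge of the Lce1 cluster, had 174, 203 and 177 CPM in paw.

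The 4 Lce3 genes lay below the Lce1 genes. Lce3c had 42.0, 38.0 and 43.1 CPM in paw, and Lce3f had 7.54, 6.85 and 7.72 CPM. Lce3a had 7, 3 and 9 reads in the paw libraries and Lce3b 2, 1 and 5, close to the floor. In human skin, LCE3 genes are known for being induced after barrier disruption. Per kilobase of transcript, Lce3c stood at 72.4 ± 4.73 CPM and Lce3f at 12.1 ± 0.749 CPM in paw (SD, n = 3), against means of 417 to 1118 CPM for the 12 Lce1 genes. Outside paw, Lce3c had 2 reads over the DRG libraries and 2 over spinal cord, and Lce3f had 0 and 2.

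Most Lce1 promoters carry a TATA-type word just before the transcription start. The last 60 bases before the start are shown for 6 Lce1 genes. The sequences are RefSeq's (GRCm38.p6), printed 5′ to 3′ on the gene's strand, which for all 6 is the minus strand. They lie at chr3:92648308-92648367 for Lce1a1, chr3:92656927-92656986 for Lce1b, chr3:92765066-92765125 for Lce1h, chr3:92851287-92851346 for Lce1l, chr3:92687211-92687270 for Lce1d and chr3:93019062-93019121 for Lce1m. Capitals mark ATAAAA or TATAAA, words read as a TATA box when they stand 40 to 20 bases before a start.
Lce1a1: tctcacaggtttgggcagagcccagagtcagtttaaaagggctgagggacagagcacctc
Lce1b: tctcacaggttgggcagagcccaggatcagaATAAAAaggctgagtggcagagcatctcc
Lce1h: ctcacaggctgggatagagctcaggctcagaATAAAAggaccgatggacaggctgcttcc
Lce1l: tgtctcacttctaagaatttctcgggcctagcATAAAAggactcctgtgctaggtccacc
Lce1d: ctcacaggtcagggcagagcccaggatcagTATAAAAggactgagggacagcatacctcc
Lce1m: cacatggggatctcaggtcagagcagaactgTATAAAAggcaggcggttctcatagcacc
Promoters were given for 40 of the 43 genes, among them 11 Lce1 genes. In 10 of these 11 the word ATAAAA lies on the gene strand with its first base 28 or 29 bases before the start, and in Lce1d and Lce1m it is part of TATAAAA. Lce1a1, the gene with the highest paw level of the family, holds neither word there. Over all 32851 promoters of the table, 1.74% hold ATAAAA in this window and 1.99% hold TATAAA, against 55.0% and 45.0% of the 40 genes described here. The words overlap, and ATAAAA was added after these promoters had been read.

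The small proline-rich proteins are cross-linked bridges between other envelope proteins. Sprr1b had 564, 456 and 541 CPM in paw, against 0.268, 0.0483 and 0.248 CPM in the DRG and 0.350, 0.280 and 0.115 CPM in spinal cord. These levels rest on 6, 1 and 5 reads in the DRG libraries and 7, 6 and 2 in the spinal cord libraries. The 11 Sprr2 genes summed to 87.3 ± 21.4 CPM in paw, and Sprr2h, Sprr2b and Sprr2d carried nearly all of that. Sprr2h had 26.8, 29.9 and 35.4 CPM, Sprr2b 24.3, 24.0 and 42.2 CPM, and Sprr2d 18.1, 22.3 and 30.7 CPM. None of these 3 genes had a read in any DRG or spinal cord library. Against 3 reads over the group, Sprr2h was at least 648-fold higher in paw than in DRG and at least 602-fold higher than in spinal cord. The bounds were 639-fold and 595-fold for Sprr2b and 501-fold and 466-fold for Sprr2d. Sprr2k averaged 1.40 CPM in paw, and Sprr4, which lies beside Ivl in the gene order, had 2.16, 0.679 and 1.06 CPM. Sprr3, known from oral and oesophageal linings, had 1 read in the 9 libraries. The pseudogene Sprr2j-ps had 1, 0 and 1 reads in the paw libraries.

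Most Sprr2 promoters share an arrangement of words that the Lce1 promoters lack, and the last 220 bases before the start are shown for the 3 Sprr2 genes with at least 10 CPM in paw. They lie on the plus strand of GRCm38.p6 at chr3:92316485-92316704 for Sprr2b, chr3:92338920-92339139 for Sprr2d and chr3:92385465-92385684 for Sprr2h. Capitals mark TGANTCA, the consensus of AP-1 factors, ATTTGCAT, the octamer known to be bound by POU factors, and the TATA-type words.
Sprr2b: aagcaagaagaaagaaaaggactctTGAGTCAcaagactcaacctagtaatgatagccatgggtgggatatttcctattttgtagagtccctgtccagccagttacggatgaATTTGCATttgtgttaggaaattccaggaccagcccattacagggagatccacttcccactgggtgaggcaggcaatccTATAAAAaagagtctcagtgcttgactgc
Sprr2d: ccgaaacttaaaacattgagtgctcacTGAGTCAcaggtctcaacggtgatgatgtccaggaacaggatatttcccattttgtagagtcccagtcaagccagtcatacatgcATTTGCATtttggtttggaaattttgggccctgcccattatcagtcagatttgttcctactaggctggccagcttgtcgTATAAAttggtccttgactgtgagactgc
Sprr2h: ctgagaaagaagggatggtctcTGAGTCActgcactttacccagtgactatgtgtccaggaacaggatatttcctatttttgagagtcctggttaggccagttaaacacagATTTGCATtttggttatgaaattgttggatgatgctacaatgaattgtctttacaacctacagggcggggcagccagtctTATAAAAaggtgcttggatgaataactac
ATTTGCAT, searched on both strands of the 300 bases from 250 before to 50 after the start, was found in 7 of 9 Sprr2 promoters, in none of the other 31 and in 1.74% of all promoters. Its first base lay 108 to 112 bases before the start in all 7. TGANTCA was found in the same 7 Sprr2 promoters, in 0 of 11 Lce1 and 0 of 4 Lce3 promoters, and in 7 of the 12 promoters outside the Lce and Sprr families. With Sprr1b it was in 15 of the 40 promoters, or 37.5%, against 7.81% of all promoters. The 2 Sprr2 promoters that hold neither word are those of Sprr2a1 and Sprr2a2. ATTTGCAT was added after the promoters had been read. CACCC, a word within the sites of Klf4 and related factors, was in 52.5% of the 40 and in 57.5% of all promoters. Sprr2e, Sprr2f and Sprr2i hold TGANTCA, ATTTGCAT and TATAAA within 4 bases of their places in Sprr2b, and had 11, 0 and 39 reads over the 3 paw libraries.

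Lor, Sprr1b and Ivl, from the remaining families, are shown for the same words. They lie on the minus strand at chr3:92083143-92083222, chr3:92438780-92438919 and chr3:92573736-92573885.
Lor: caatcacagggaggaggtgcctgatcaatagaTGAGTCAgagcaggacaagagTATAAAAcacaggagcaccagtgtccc
Sprr1b: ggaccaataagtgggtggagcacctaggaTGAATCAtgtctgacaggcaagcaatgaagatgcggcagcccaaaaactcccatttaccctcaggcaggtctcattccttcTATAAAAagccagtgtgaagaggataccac
Ivl: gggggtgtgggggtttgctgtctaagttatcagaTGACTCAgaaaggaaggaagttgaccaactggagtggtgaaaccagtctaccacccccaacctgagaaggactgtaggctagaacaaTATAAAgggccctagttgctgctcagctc
The TGANTCA word begins 48 bases before the start in Lor, 111 in Sprr1b and 116 in Ivl.

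The S100-fused genes spanned means of 0.780 to 7825 CPM in paw. Hrnr, the gene of hornerin, a long repetitive relative of filaggrin, had 8676, 8220 and 6578 CPM in paw, against 2.55, 1.98 and 3.57 CPM in the DRG and 3.10, 2.89 and 2.53 CPM in spinal cord. Paw exceeded DRG by 11.50 ± 0.28 (adjusted p = 1.62e-11) and exceeded spinal cord by 11.42 ± 0.28 (adjusted p = 1.50e-11). Rptn, the gene of repetin, had 185, 114 and 150 CPM, Flg2, of filaggrin-2, had 113, 80.8 and 101 CPM, and Crnn, of cornulin, had 70.1, 50.9 and 34.5 CPM in paw. Outside paw, Rptn had 4, 1 and 6 reads in the DRG libraries and 1, 1 and 2 in spinal cord. Crnn had no read in DRG, so that its paw level was at least 1092-fold higher, and 1 read in spinal cord. Tchhl1, trichohyalin-like 1, had 26, 6 and 7 reads in paw.

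Tchh had the smallest differences between paw and the other tissues among the 32 tested genes. It encodes trichohyalin, which hardens the inner root sheath of hair follicles. It had 24.2, 9.32 and 10.7 CPM in paw, against 5.36, 3.86 and 4.55 CPM in the DRG and 6.05, 5.09 and 6.37 CPM in spinal cord. Paw did not overlap the other tissues, but the paw values differed 2.60-fold among themselves. For Tchh, paw exceeded DRG by 1.68 ± 0.33 (adjusted p = 0.000787) and exceeded spinal cord by 1.34 ± 0.33 (adjusted p = 0.00311). Without paw sample 1 these differences were 1.11 and 0.77. DRG and spinal cord differed by −0.34 ± 0.34 (DRG minus spinal cord, adjusted p = 0.412), which was not called. Tchh had 80 to 120 reads in the DRG libraries and 109 to 121 in the spinal cord libraries.

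Keratins of the same inner root sheath differed among themselves outside paw. Krt71 had 309, 92 and 123 reads in paw, 1, 0 and 0 in DRG and 3, 2 and 2 in spinal cord. Krt25 had 300, 75 and 110 reads in paw, 15, 23 and 25 in DRG, or 6.92 to 12.8% of its mean paw level, and 35, 59 and 28 in spinal cord, or 16.6 to 28.4%. Krt27 had 66, 22 and 19 reads in paw, 54, 79 and 61 in DRG, or 113 to 178% of its mean paw level, and 0, 2 and 0 in spinal cord. The 12 hair follicle genes together were at 4.51 to 7.15% of their paw level in DRG and at 26.8 to 34.1% in spinal cord. Hoxc13 made up most of the spinal cord sum. It gave 18.7, 19.6 and 15.7 of the 23.0, 24.7 and 19.3 CPM in samples 1, 2 and 3. Hoxc13 averaged less in paw, at 8.21 CPM, a called difference. The part of these hair follicle genes in the Tchh values was not tested.

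Krtdap, Lgals7, Mt4 and Calm4 lie outside the complex, on chromosomes 7, 7, 8 and 13. Calm4, a calmodulin-like calcium-binding protein of mouse epidermis, had 6719, 6333 and 5559 CPM in paw, against 2.23, 1.35 and 3.37 CPM in the DRG and 2.20, 2.10 and 1.72 CPM in spinal cord. The paw level was higher by 11.39 ± 0.33 than in DRG and by 11.58 ± 0.33 than in spinal cord (adjusted p = 4.33e-11 and 3.76e-11). Lgals7, galectin-7 of stratified epithelia, had 2641, 3398 and 2791 CPM in paw. Krtdap, a small secreted protein of suprabasal keratinocytes, had 2657, 2853 and 2609 CPM, and Mt4, the metallothionein of stratified squamous epithelia, had 1032, 1040 and 883 CPM. The log2 difference from DRG was 11.59 ± 0.22 for Lgals7 and 11.98 ± 0.32 for Krtdap. Mt4 had 5, 2 and 9 reads in the DRG libraries and 3, 6 and 3 in spinal cord. For Krtdap and Lgals7 the DRG and spinal cord libraries held between 6 and 25 reads each, and neither gene was called between DRG and spinal cord.

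Relatives of these genes were counted in the same comparison. Of 7 other metallothionein and calmodulin genes, 3 were called higher and 4 lower in paw than in DRG, where 39.7% of all tested genes were called higher and 40.8% lower. Calml3, the calmodulin-like gene of epithelia, averaged 1608 ± 231 CPM in paw and 0.750 ± 0.228 CPM in DRG. Mt3, the metallothionein of the nervous system, averaged 2.64 ± 0.215 CPM in paw and 139 ± 3.21 CPM in DRG. Of 6 other galectins, 3 were called higher in paw than in DRG, with Lgals3 at 1066 ± 125 CPM in paw and 25.8 ± 1.90 CPM in DRG, and 3 lower, with Lgals8 at 50.3 ± 3.90 CPM in paw and 183 ± 5.12 CPM in DRG. Both counts lie near the shares over all genes, and nothing is read from them.

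Levels can be compared between genes only per length, here per kilobase of the GENCODE M21 transcript, since the submitters' gene models are not given. On that scale Calm4 was highest in paw, at 6765 ± 644 CPM per kb, followed by Krtdap at 5758 ± 275, Lgals7 at 3904 ± 532, Mt4 at 2475 ± 222 and Lor at 1206 ± 68.1. Each of these neighbours differed by more than the sum of their SDs. Lce1a1 was next at 1118 ± 116, which did not differ from Lor beyond the spread. Hrnr, the gene with the most reads, stood 11th at 699 ± 98.6 CPM per kb, because its transcript is 11187 bases long. The 12 Lce1 genes spanned 417 to 1118 CPM per kb, Lce6a was at 232 ± 20.1, Lce3c at 72.4 ± 4.73, Ivl at 64.0 ± 2.35, Sprr2h at 40.8 ± 5.82, Rptn at 36.1 ± 8.55, Flg2 at 14.0 ± 2.33 and Tchh at 2.53 ± 1.41.

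Repeats and near-identical copies limit what 50-base reads can count here, because alignments to several places were left out of the gene counts. In whole libraries, not for these genes alone, they were 46.9 to 47.6% of alignments in paw, 31.9 to 32.8% in DRG and 33.1 to 35.5% in spinal cord. A position of a transcript was taken as countable where its 50-base word occurs once, among all annotated transcripts and within its own gene. Only 3444 of the 11138 start positions of Hrnr were countable, or 30.9%, since 7694 repeat within the gene. Per 1000 countable positions Hrnr stood 5th, at 2272 ± 320 CPM. This share was 72.9 to 96.8% in the Lce1 genes, 64.3% in Lce3c, 52.0% in Lce3f and 73.7% in Flg2. Sprr2a1 and Sprr2a2, which share 2733 words with each other, had 3.72 and 3.55% countable positions and no read in any library, so their level could not be read from these counts. Sprr2f had no read either, although 99.3% of its positions were countable.

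**Figure D2:**
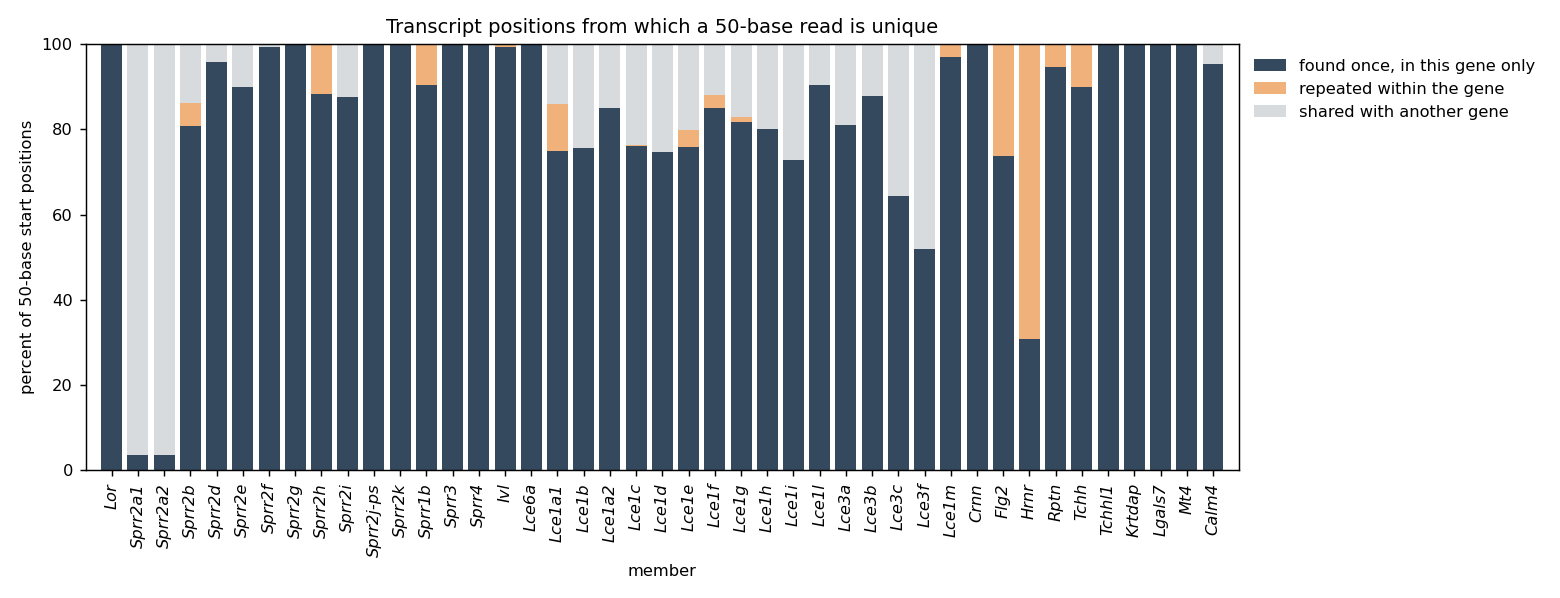
Share of the 50-base start positions of each gene's transcript that are found once (dark), repeated within the gene (orange) or shared with another gene (grey), in percent. Sprr2a1 and Sprr2a2 have almost no countable position, Hrnr has 30.9%, and Lor, Krtdap, Lgals7, Mt4 and Lce6a have 100%.

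Between the 3 paw samples the families did not share one order. All 12 Lce1 genes were lowest in paw sample 3, with 8 highest in sample 2 and 4 in sample 1. Their highest value was 1.16 to 1.29 times their lowest. Of the 32 tested genes, 18 were lowest in sample 3, the 12 Lce1 genes among them. The share of all genes lowest there was not counted, so nothing is read from these counts. The 5 tested S100-fused genes were all highest in sample 1, by 1.32 to 2.60 times over the lowest. Sprr2b, Sprr2d, Sprr2h, Lce3c and Lce3f were highest in sample 3, by 1.13 to 1.76 times. Sprr2k, with 30, 19 and 21 reads, was highest in sample 1, by 1.53 times. Over all 10279 tested genes with at least 10 CPM in paw, the median of this ratio was 1.17 and the 90th percentile 1.42, and 43.8% were highest in sample 1, 23.9% in sample 2 and 32.3% in sample 3. For the 29 genes described here that reach 10 CPM the median was 1.24 and the 90th percentile 1.71. These 3 samples carry the same label, so no test was made.

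Marker genes of other cell types differed between the same samples. The summed level of 17 skeletal muscle genes was 23007, 27699 and 32325 CPM in paw samples 1, 2 and 3, highest in sample 3. That of 9 spinous and palmoplantar keratinocyte genes was 79260, 55440 and 56578 CPM, and that of 12 hair follicle genes 106, 53.1 and 57.4 CPM, both highest in sample 1 as the S100-fused genes were. Sample 1 was also highest for the summed basal keratinocyte genes, at 7213, 6336 and 6613 CPM. It was highest too for the lists of cross-linking, lipid envelope and regulator genes described further on. The same held for the other galectins, at 1425, 1237 and 1261 CPM, and the other metallothioneins and calmodulins, at 2932, 2608 and 2479 CPM. Oligodendrocyte and astrocyte genes were highest there as well. The fibroblast and sensory neuron lists were highest in sample 2, and genes of oesophagus-type epithelium in sample 3. Krt1, the spinous partner of Krt10, had 16279, 8482 and 9103 CPM. Ovol1, a transcription factor of differentiating epidermis, had 33.5, 37.1 and 80.9 CPM, highest in sample 3 as Sprr2b was. Their part in the differences between genes was not tested. With library sizes that leave the muscle genes out, the summed level of the 43 genes was 31786, 32178 and 27612 CPM.

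**Figure D3:**
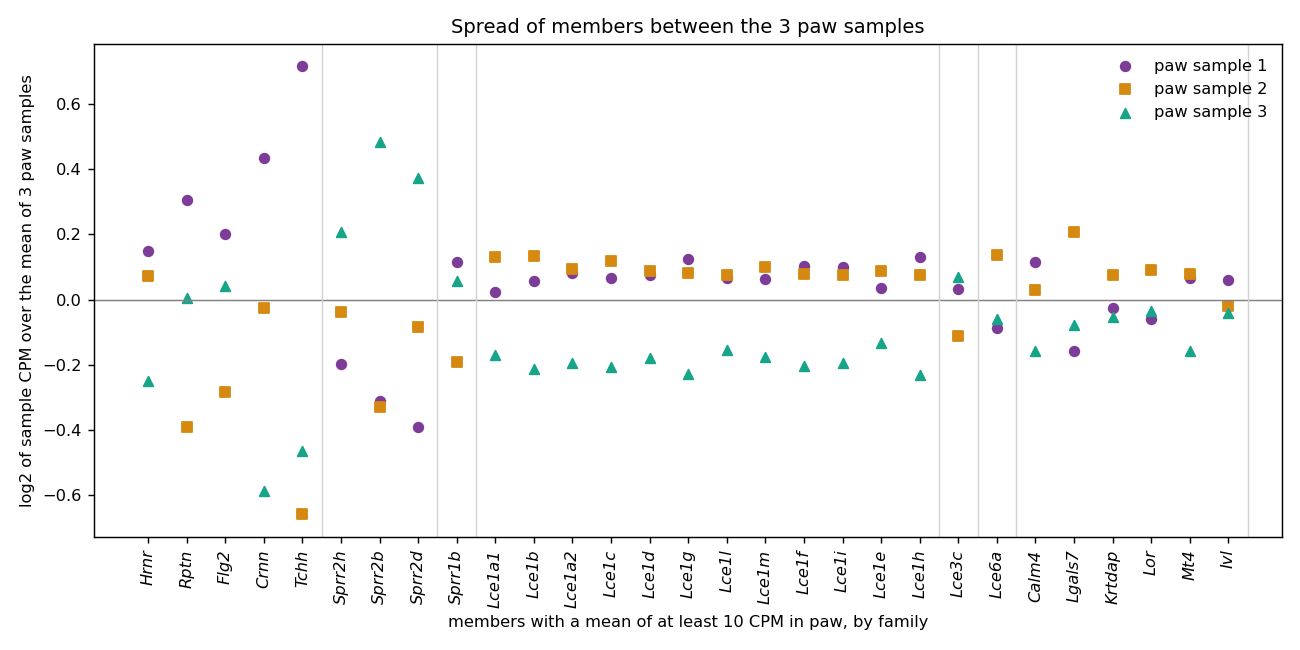
Log2 of each paw sample's CPM over the mean of the 3 paw samples, for the 29 genes with a mean of at least 10 CPM in paw, grouped by family. Triangles (sample 3) lie below the line for all 12 Lce1 genes and above it for Sprr2h, Sprr2b and Sprr2d, and circles (sample 1) lie highest for the 5 S100-fused genes.

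The few reads in DRG and spinal cord stood in a similar ratio to paw for most of these genes and for several keratins. The genes other than Tchh and Lor, which were set apart after their values were seen, summed to 0.0338, 0.0209 and 0.0482% of their mean paw level in the DRG samples and to 0.0353, 0.0337 and 0.0298% in the spinal cord samples. Basal keratins gave shares of the same size, with Krt5 and Krt14 together at 0.0276, 0.0211 and 0.0591% in DRG and 0.0249, 0.0390 and 0.0377% in spinal cord. The list of 10 basal keratinocyte genes was higher, at 5.32 to 8.31% of its paw level in DRG and 1.98 to 3.27% in spinal cord. Itgb4 and Itga6 made up most of these sums. Over the DRG samples Itgb4 averaged 318 CPM and Itga6 107 CPM, where the list summed to 357 to 558 CPM. Over the spinal cord samples they averaged 121 and 27.3 CPM, where the list summed to 133 to 220 CPM. Neither gene was called for DRG against paw. Spinous keratins gave low shares too, with Krt1, Krt2 and Krt10 together at 0.0442, 0.0294 and 0.0601% in DRG and 0.0589, 0.0575 and 0.0469% in spinal cord. In the other direction, the sensory neuron sodium channel Scn10a had 4, 9 and 4 reads in paw, or 0.0229, 0.0531 and 0.0225% of its mean DRG level. Other neural markers gave higher shares in paw. The 5 sensory neuron genes together were at 0.134, 0.179 and 0.166% of their DRG level, Mog, of myelin, at 0.129, 0.240 and 0.229% of its spinal cord level, and the 7 oligodendrocyte and astrocyte genes at 1.09, 0.845 and 1.02% of theirs. Of the last list, Aldh1l1 gave 20.2, 16.7 and 16.7 CPM of the summed 34.6, 26.7 and 32.3 CPM in paw. Aldh1l1 was not called between paw and DRG. The source of the reads described in this paragraph was not tested.

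Tchh lay far above that ratio in both tissues, and Lor above it in spinal cord. Tchh was at 36.4, 26.2 and 30.9% of its mean paw level in the DRG samples and at 41.1, 34.5 and 43.3% in the spinal cord samples. Lor was at 0.0458, 0.0247 and 0.0531% in DRG, within the range of the other genes, but at 0.193, 0.185 and 0.131% in spinal cord. Some genes with few reads lay above the ratio as well. Lce6a was at 0.121, 0.105 and 0.134% of its mean paw level in the DRG samples, on 14 reads, and Rptn averaged 0.117% in DRG on 11 reads. In spinal cord Lce3f averaged 0.437% and Sprr2k 2.47%, each on 2 reads.

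**Figure D4:**
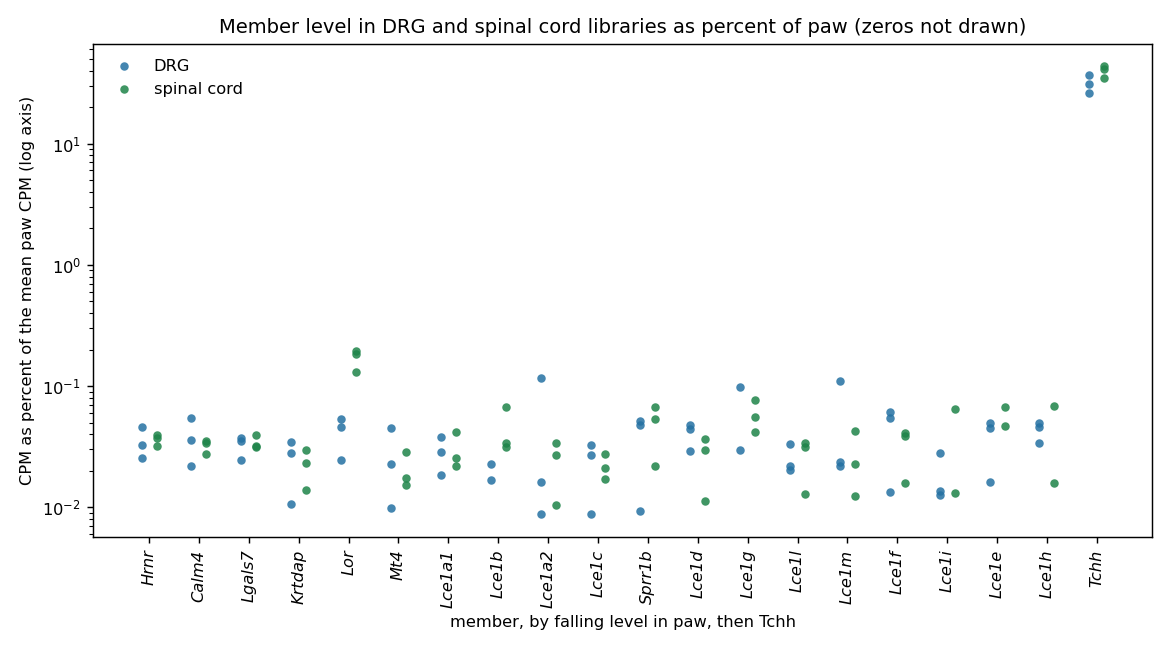
Level in each DRG and spinal cord library as percent of the gene's mean paw level, on a log axis, for the 19 genes above 290 CPM in paw and for Tchh, with DRG to the left of spinal cord. Most points lie between 0.01 and 0.1%, the 3 spinal cord points of Lor lie between 0.131 and 0.193%, and the 6 points of Tchh lie between 26.2 and 43.3%.

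Between DRG and spinal cord, 1 gene was called higher and 1 lower among the 32 tested, where 29.0% of all tested genes were called higher and 30.6% lower. Nothing is read from that difference, because 26 of the 32 could be tested through their paw reads alone and had few reads in these tissues. Of the 6 with enough reads without paw, Lor was called and the other 5 were not. Lor was lower in DRG, with 22, 11 and 23 reads there and 83, 85 and 49 reads in spinal cord, by −2.04 ± 0.24 (DRG minus spinal cord, edgeR adjusted p = 2.24e-05). The call held in all 14 alternatives run, with differences of −2.25 to −1.78. Lce6a was higher in DRG, with 5, 4 and 5 reads there and 0, 1 and 2 reads in spinal cord, by 1.98 ± 0.60 (edgeR adjusted p = 0.0165). This call rests on 3 spinal cord reads: without spinal cord sample 1 the difference was 1.45 (adjusted p = 0.110) and without sample 2 it was 1.91 (adjusted p = 0.0504). Lce1b, with 3, 0 and 2 reads in DRG and 4, 4 and 7 in spinal cord, was not called (−1.62 ± 0.65, adjusted p = 0.0510). Calm4 and Hrnr, which had 28 to 72 reads in each DRG library, differed by 0.20 ± 0.28 and −0.08 ± 0.23 and were not called.

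Along chromosome 3 in the RefSeq gene order, 39 of the genes lie in a run of 46, from Lor at the near end through the Sprr2 cluster, Sprr1b, Ivl, Lce6a and the Lce genes to Crnn, Flg2, Hrnr, Rptn, Tchh and Tchhl1. Level did not follow this order, since Hrnr stands between Flg2, at 98.5 ± 16.3 CPM, and Rptn, at 150 ± 35.5 CPM. The 7 other genes in the run are Prr9, Lelp1, Sprr1a, Smcp, Kprp, 2310050C09Rik and Crct1, and 5 of them could be tested. Kprp, a keratinocyte proline-rich protein, averaged 1112 ± 198 CPM in paw, 2310050C09Rik 905 ± 107 CPM and Crct1 655 ± 67.5 CPM. In any DRG or spinal cord library Kprp had 5 to 14 reads, 2310050C09Rik 4 to 12 and Crct1 2 to 12. Lce1i and Lce1l, which flank Kprp, averaged 354 ± 38.7 and 443 ± 39.0 CPM. Prr9 averaged 7.99 ± 0.754 CPM with no read in DRG or spinal cord. Lelp1 had 0 reads in paw. Sprr1a, which neurons also make after injury, averaged 44.4 ± 12.4 CPM in paw and 6.01 ± 6.99 CPM in DRG, with 313, 20 and 62 reads in the DRG samples.

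Genes that cross-link and process the envelope were counted in the same comparisons. Here and in the lists after it, a gene present in paw alone could be tested only through paw. Of 17, 14 were called higher, 2 lower and 1 not in paw against DRG, and 16 were higher and 1 lower against spinal cord. Of all tested genes, 39.7% were called higher and 40.8% lower in paw than in DRG, and 39.9% higher and 41.7% lower than in spinal cord. The median log2 difference of the 17 genes was 5.17 for paw minus DRG and 7.38 for paw minus spinal cord. The medians over all tested genes were −0.02 and −0.03. Tgm1, Tgm3 and Tgm5, the transglutaminases of epidermis, averaged 289 ± 32.2, 354 ± 81.6 and 41.3 ± 12.6 CPM in paw. Asprv1, a protease that cuts filaggrin precursors, averaged 3409 ± 528 CPM in paw, 2.53 ± 0.624 CPM in the DRG and 3.22 ± 0.668 CPM in spinal cord. Klk7, which sheds surface cells, averaged 580 ± 46.9 CPM in paw and 0.235 ± 0.0760 CPM in DRG. Ctsl, a lysosomal protease used in many cells, was lower in paw (paw minus DRG −1.51 ± 0.10, adjusted p = 4.07e-08). Padi2, which converts arginine to citrulline in proteins, was not called against DRG (0.07 ± 0.21) and lower in paw than in spinal cord by −1.59 ± 0.21.

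Other parts of the cornified layer were counted in the same way. Of all tested genes, 39.7% were called higher and 40.8% lower in paw than in DRG, and 39.9% higher and 41.7% lower than in spinal cord. Of 23 further envelope and cornified layer genes tested, 21 were called higher and 2 lower in paw than in DRG, and 22 and 1 against spinal cord. Sbsn, suprabasin, averaged 2274 ± 304 CPM in paw, and Evpl, envoplakin, 336 ± 30.02 CPM. S100a10, which is widely expressed, was lower in paw than in DRG by −0.29 ± 0.09, and Plin3, a lipid droplet protein, differed from DRG by −0.32 ± 0.10 and from spinal cord by −0.52 ± 0.10, lower in paw in both. Of 13 genes of the lipid envelope, 11 were called higher in paw than in DRG and 2 were not called, and all 13 were higher than in spinal cord. Elovl4, which makes very long fatty acids, averaged 1450 ± 186 CPM in paw and 79.2 ± 5.02 CPM in DRG. Alox12b, the lipoxygenase needed to attach lipid to the envelope, averaged 440 ± 82.5 CPM in paw and 0.745 ± 0.153 CPM in DRG. Elovl1 and Ugcg were not called against DRG.

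Of 22 regulators of epidermal differentiation, 17 were called higher in paw than in DRG, 4 lower and 1 not, and 18, 2 and 2 against spinal cord. The shares over all tested genes were 39.7% higher and 40.8% lower than in DRG, and 39.9% and 41.7% against spinal cord. Klf4, needed for the barrier, averaged 843 ± 242 CPM in paw, 8.51 ± 0.257 CPM in the DRG and 15.1 ± 1.04 CPM in spinal cord. Maf was lower in paw than in DRG by −0.79 ± 0.26, and Satb1 was lower by −1.80 ± 0.13. Keap1, which restrains Nrf2, was not called in either comparison with paw.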

How the data were processed

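The authors deposited whole-number read counts per gene symbol for each library. Per the labels' protocols, oligo-dT-selected RNA was made into libraries with a stranded kit and read as 50-base single ends. Per the submitters' processing notes, bcl2fastq, TopHat2, HTSeq and mm9 were used. Versions, gene models and the counting's strand setting were not given in the sources used here, so overlapping and antisense genes are uncertain. Summary rows, 42.9 to 59.3% of each file's total, stayed out of library sizes and tests. The titles gave each sample's tissue and number. No pair of libraries within a tissue was alike to within counting noise.

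Counts of all 9 libraries were fitted in edgeR 4.0.16 (R 4.3.3) with tissue as factor, filterByExpr, TMM scaling, robust glmQLFit and glmQLFTest, with 6 residual degrees of freedom. limma 3.58.1 (voom) and DESeq2 1.42.0 served as alternatives, as did other scalings, other filters, the 2 tissues alone, a replicate block and leaving out each sample. The functions were tested on simulated counts. The SE of a fold is its size over the square root of its F. Where a tissue had 0 reads in all, the fold is a bound set against 3 reads in its libraries together. With 1 to 3 reads the fold has an exact 95% interval. Floors and intervals cover counting error only.

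Gene lengths, 50-base words and their copies came from GENCODE M21 transcripts and promoters from RefSeq (GRCm38.p6), whereas the counts use mm9, so of that table only promoter coordinates are given. No genome sequence was searched. The genes and lists were chosen with earlier results of these data known. Values per library and folds are given for genes with at least 10 CPM in paw or 10 reads over DRG or spinal cord, and of each list for the 2 highest called genes in the main direction, the highest called the other way and the highest not called. Tgm1, Tgm3, Tgm5, Krt1, Krt71, Scn10a, Ovol1, Sbsn, Evpl and the genes with few reads in paw were named outside that rule, after their values were seen.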

Additional observations from a re-analysis of the deposited data

How the results depend on the processing

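The 32 genes called higher in paw ranged from 30 to 38 over 14 alternatives against DRG and likewise against spinal cord, and none was ever called lower. The summed paw level of 29687 ± 2572 CPM was 30634 with raw library sizes and 30525 without muscle genes, and 28887 to 31171 when a paw sample was left out. Between DRG and spinal cord the counts are small and moved. The genes called lower in DRG numbered 2 instead of 1 with DESeq2's Wald test, with no low-count filter, with upper quartile factors and without DRG sample 1. The added gene was Lce1b, at −1.70 (adjusted p = 0.0428), −1.61 (0.0493), −1.66 (0.0425) and −2.24 (0.0400) in that order. The genes called higher numbered 0 instead of 1 when only these 2 tissues were fitted, where Lce6a was not tested, and without spinal cord sample 1 or 2. The cause was not tested.

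Signs of uncalled DRG minus spinal cord differences turned when 1 sample was left out. They then ranged from −0.16 to 0.47 for Calm4, −0.32 to 0.10 for Hrnr, −0.16 to 0.51 for Krtdap, −0.34 to 0.23 for Lce1a1, −0.90 to 1.35 for Lce1a2, −1.78 to 0.15 for Lce1g, −0.13 to 1.43 for Lce1m, −0.20 to 0.064 for Lgals7, −0.31 to 0.68 for Mt4 and −0.76 to 0.030 for Sprr1b. The other 1020 results for single genes kept their direction and their side of the threshold. The other 166 counts or sums were judged by size alone and stayed near their main values. All genes called lower in paw than in DRG, for example, ranged from 5950 to 6830 around 6560.

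Same-numbered samples did not all deviate together, with correlations of −0.13 to 0.27, against −0.45 to 0.34 for differently numbered samples. The numbers were therefore not taken to pair samples. With 3 samples per tissue, this check cannot exclude that same-numbered samples came from the same mouse. With a replicate block, 32 of the genes were called higher in paw in both comparisons, and 1 higher and 1 lower in DRG than in spinal cord. Of all genes, 6368 were called higher in paw than in DRG with the block, against 6386 without.

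Depth limits the genes with few reads: at 3 reads per library, levels under 0.129 to 0.193 CPM (before TMM scaling) cannot be told from 0.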
